A study of Homo sapiens with 6 samples.

Results

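The genes described here lie on the distal long arm of chromosome 2, from SESTD1, a spectrin-domain protein, to MTERF4, a mitochondrial ribosome assembly factor. They were taken as every gene that starts in that interval in RefSeq (assembly GRCh38.p14) and has a probe set of its own on the array. For a gene with several probe sets, the brightest by the mean of the 6 arrays was used. This gave 584 of 33578 genes tested. They comprised 321 protein-coding genes (of 366 that RefSeq places in the interval, with the others not analysed here), 173 pseudogenes and 6 transcribed pseudogenes, 40 long non-coding RNA genes, 35 microRNA genes, 7 small nucleolar RNA (snoRNA) genes and 2 other non-coding RNA genes. The interval was chosen by the difference in signal between knockout and control cells, as a stretch in which running medians over coding neighbours with a signal above the median were low on these same arrays. That difference is given below as a description, and no p-value is given for any gene of the interval.

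The arrays were made from KPL4 cells, an established human line of inflammatory breast cancer. The 3 ERβ knockout samples came from cells whose estrogen receptor beta gene, ESR2, was disrupted by CRISPR/Cas9, and the 3 control samples from cells labelled control. No treatment is given for either group, and both grew in medium with serum, insulin and hydrocortisone. The samples are labelled biological replicates. Separate cultures, clonal origin of the knockout and the handling of the controls are not stated, so p-values cover only how far these samples spread, and that spread may be technical.

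Neighbouring genes on a chromosome arm need not share a function, and the distal long arm of chromosome 2 holds genes of many kinds. It codes for integrin and collagen chains, caspases, insulin-like growth factor binding proteins, mitochondrial chaperones, DNA repair proteins and subunits of the proteasome and signalosome. It also holds host genes whose introns carry small nucleolar RNAs, which guide the chemical modification of ribosomal RNA. ERβ is a ligand-activated transcription factor that binds paired estrogen response elements or acts through other factors such as AP-1.

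Promoters are shown for the members with the largest called falls and rises that RefSeq's promoter table listed (GRCh38.p14, 250 bases before to 50 after the gene start). ACKR3 had no entry. Capitals mark the motifs AGGTCA (an arm of the estrogen response element), TGANTCA (the AP-1 site) and GGGCGG (the GC box), searched on both strands with overlapping matches allowed. The TFPI window lies at chr2:187554386-187554685 on the minus strand, SPAG16 at chr2:213284214-213284513 on the plus strand, SLC40A1 at chr2:189580737-189581036 on the minus strand and RAPH1 at chr2:203535252-203535551 on the minus strand.
TFPI: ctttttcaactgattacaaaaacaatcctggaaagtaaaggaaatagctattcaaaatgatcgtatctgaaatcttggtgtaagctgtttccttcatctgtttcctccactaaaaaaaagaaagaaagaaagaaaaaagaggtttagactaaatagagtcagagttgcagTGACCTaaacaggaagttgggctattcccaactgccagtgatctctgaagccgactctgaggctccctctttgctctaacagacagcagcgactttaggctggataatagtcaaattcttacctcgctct
SPAG16: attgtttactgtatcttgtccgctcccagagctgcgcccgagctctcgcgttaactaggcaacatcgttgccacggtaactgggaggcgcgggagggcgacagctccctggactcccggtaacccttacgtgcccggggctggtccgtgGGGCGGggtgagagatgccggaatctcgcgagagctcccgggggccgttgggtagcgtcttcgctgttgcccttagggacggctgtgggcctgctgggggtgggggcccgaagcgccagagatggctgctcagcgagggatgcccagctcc
SLC40A1: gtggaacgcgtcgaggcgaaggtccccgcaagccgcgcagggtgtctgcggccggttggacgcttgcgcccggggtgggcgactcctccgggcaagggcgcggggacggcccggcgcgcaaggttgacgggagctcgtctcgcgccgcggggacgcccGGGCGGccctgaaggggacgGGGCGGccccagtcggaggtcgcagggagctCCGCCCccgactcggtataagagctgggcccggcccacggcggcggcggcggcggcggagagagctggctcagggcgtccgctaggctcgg
RAPH1: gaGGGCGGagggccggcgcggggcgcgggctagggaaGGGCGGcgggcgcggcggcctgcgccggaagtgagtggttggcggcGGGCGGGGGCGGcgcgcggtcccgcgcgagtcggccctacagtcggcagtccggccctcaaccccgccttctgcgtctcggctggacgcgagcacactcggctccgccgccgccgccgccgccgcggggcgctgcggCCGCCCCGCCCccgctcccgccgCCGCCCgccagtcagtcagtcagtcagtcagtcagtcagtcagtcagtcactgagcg
The TFPI window held 1 AGGTCA match and 0 GC boxes, whereas the SPAG16 window held 1, the SLC40A1 window 3 and the RAPH1 window 7 GC boxes. G and C made up 39.3% of the TFPI, 66.3% of the SPAG16, 77.7% of the SLC40A1 and 79% of the RAPH1 window. The full estrogen response element, searched as GGTCA and TGACC with 3 bases of any kind between them, was found in 0 of 325 member promoters listed, against 18 of 27305 promoters in the table (0.0659%). AGGTCA was found in 41 member promoters (12.6%) against 13.9% of all, TGANTCA in 18 (5.54%) against 7.76%, and GGGCGG in 182 (56%) against 44.6%. The letters of a window describe the sequence and say nothing of whether a factor binds there.

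The targeted gene could not serve as a check of the labels. ESR2 had log2 signals of 3.90, 4.08 and 4.01 in knockout cells, against 3.99, 3.69 and 4.16 in control cells (difference 0.05, limma adjusted p = 0.90). Both means were dim, where "bright" means a mean over the 6 arrays above 5.05, the median of all tested genes. All 6 luminal epithelial markers examined were bright, from 7.83 (CDH1) to 17.5 (EPCAM) in knockout cells and 7.80 to 17.5 in control cells. KRT19, a keratin of simple epithelia, was the 1 luminal marker called, with 14.99, 14.88 and 14.80 in knockout cells, against 13.65, 13.70 and 13.58 in control cells (log2 difference 1.25, limma adjusted p = 0.00010). CD3E, CD14, LYZ, PDGFRB, LUM, PECAM1, CDH5 and TEK, markers of leukocytes, fibroblasts and endothelium, were dim. PTPRC, COL1A1, COL1A2, DCN and VWF were bright, from DCN (5.39 in knockout and 5.26 in control cells) up to COL1A1 (7.74 in knockout cells). None of these 13 markers of other cell types was called by limma, and the part of the markers in the results below was not tested. Array medians over all probe sets ran from 4.08 to 4.09 in knockout and 4.09 to 4.11 in control cells. Only RNA signal was measured, so the number of DNA copies of the interval was not analysed here.

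Most bright genes of the interval had a lower signal in knockout cells. A gene is called where the fit over all 33578 genes (limma, Benjamini-Hochberg adjusted p under 0.05) passed. Of the 584 members, 112 were called lower (19.2%), where 3.21% of all tested genes were, and 5 were called higher (0.856%), where 4.81% were. Over all tested genes 8.01% were called in either direction. The other 467 members were not called. The 3 knockout arrays lay below all 3 control arrays for 167 members (28.6%, against 10.3% of all tested genes), and above them for 31 (5.31%, against 14.9%). The median log2 difference over all members was -0.09, against 0.02 over all tested genes. Because the interval was placed from these differences, these shares describe it and test nothing. In such bulk samples, fewer cells with a transcript and less of it per cell cannot be told apart.

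The lower signal was concentrated in the 221 bright protein-coding members. Of these, 183 (82.8%) had a difference below 0, 100 were called lower (45.2%) and 3 were called higher (1.36%). Among all 11903 bright protein-coding genes tested, 6.79% were called lower and 11.0% higher. The median log2 difference was -0.49 in this class (quartiles -0.82 and -0.11), against 0.07 over all bright protein-coding genes (quartiles -0.14 and 0.29). Set against each gene's mean over the 6 arrays, the median of the class was -0.23, -0.24 and -0.26 on the knockout arrays, against 0.23, 0.26 and 0.26 on the control arrays. No knockout array overlapped a control array in this measure. The interval was placed from differences between these same arrays, so this separation describes it and tests nothing. For the 598 bright protein-coding genes of the rest of chromosome 2, the same measure ran from 0.02 to 0.07 on knockout and from -0.07 to -0.03 on control arrays, and their median difference was 0.09.

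**Figure D1:**
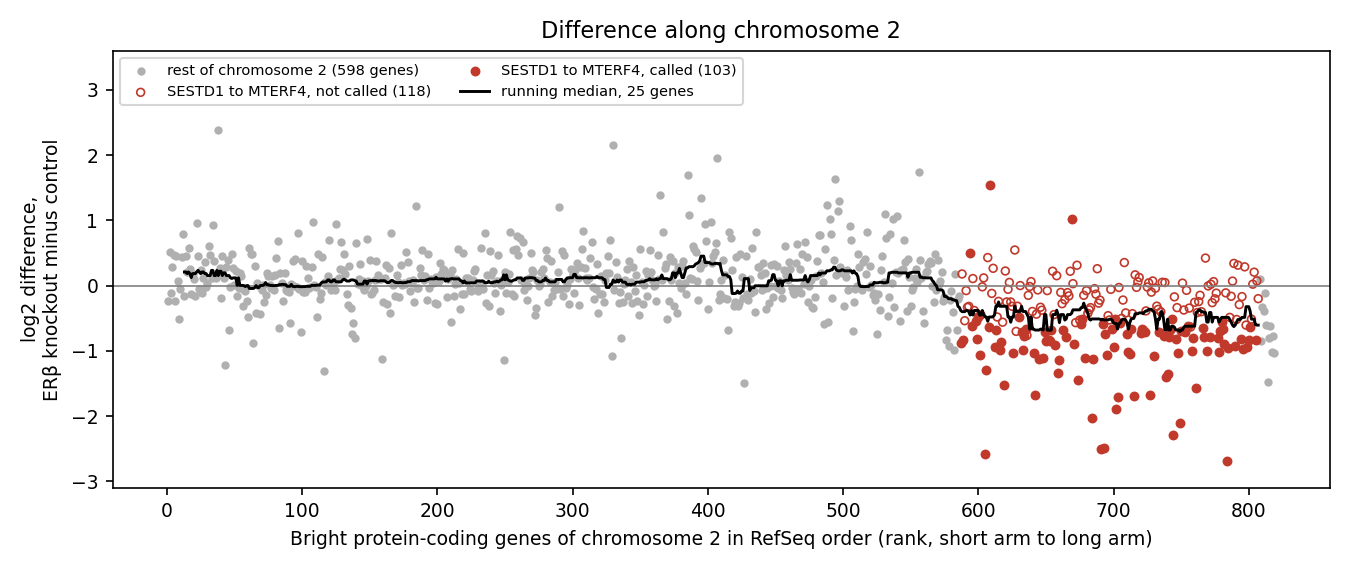
The log2 difference (knockout minus control) of every bright protein-coding gene of chromosome 2, plotted in RefSeq gene order, with called members filled, uncalled members open, other genes of the chromosome grey and a running median of 25 genes in black. The 221 members have a median of -0.49 and the 598 other genes a median of 0.09, and members called lower are spread over the whole interval.

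The members with lower signal were spread along the interval. When the 221 bright protein-coding members were cut in order into 5 bins of 44 or 45 genes, the median difference was -0.38 from SESTD1 to COQ10B, -0.55 from HSPD1 to MDH1B, -0.51 from FASTKD2 to CNPPD1, -0.63 from RETREG2 to NCL and -0.50 from PTMA to MTERF4. The bins held 17, 20, 21, 23 and 19 members called lower, in the same order. Members called higher numbered 2 in the first bin, 1 in the second and 0 in the other bins. The longest stretch of neighbours with a difference below 0 had 19 genes, from ERBB4 to CTDSP1. The longest stretch of neighbours all called lower had 6 genes, from AP1S3 to DOCK10.

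Neither end of the interval was a sharp one. At the SESTD1 end, the 5 bright protein-coding genes just inside were SESTD1 (-0.89), ZNF385B (0.18), CWC22 (-0.83), UBE2E3 (-0.54) and CERKL (-0.08), in log2 differences. The 5 just outside, going towards SESTD1, were PRKRA (-0.98), PJVK (0.18), FKBP7 (-0.68), PLEKHA3 (-0.20) and CCDC141 (-0.17). The 25 such genes before SESTD1 had a median of -0.08. Of these, 5 were called lower (20%) and 1 higher, where 6.79% of all bright protein-coding genes were called lower. The 5 all lay between HOXD3 and SESTD1: MTX2 (-0.83), NFE2L2 (-0.68), AGPS (-0.92), PRKRA and FKBP7. Genes called lower were thus also found just before the chosen start. Of these calls, that of FKBP7 was lost without knockout replicate 1 or 3 or control replicate 2 or 3. At the MTERF4 end, the 5 just inside were KIF1A (0.02), AGXT (0.21), MAB21L4 (-0.84), SNED1 (0.07) and MTERF4 (-0.20). The 5 just outside were PASK (0.09), PPP1R7 (-0.85), ANO7 (-0.32), HDLBP (-0.39) and SEPTIN2 (-0.12). All 12 bright protein-coding genes measured between MTERF4 and the end of the arm had a median of -0.70. Of these 12, 8 were called lower (66.7%) and 0 higher, so the lower signal went on past the chosen end.

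How far a member differed varied with its brightness. Protein-coding members with a mean log2 signal from 5.05 to 7 (73 genes) had a median difference of -0.08, those from 7 to 10 (60 genes) -0.56, those from 10 to 13 (54 genes) -0.68 and those above 13 (34 genes) -0.70. In the same tiers of all tested protein-coding genes the medians were 0.06, 0.08, 0.09 and 0.06. In the brightest tier every one of the 34 members had a difference below 0, from -2.11 to -0.10, and 27 were called lower. The 100 dim protein-coding members had a median of 0.01, and 1 was called lower, NRP2, a co-receptor for semaphorins and vascular growth factors. NRP2 had 4.36, 4.52 and 4.16 in knockout cells, against 5.59, 5.50 and 5.21 in control cells. Over the 221 bright protein-coding members, signal and difference had a Pearson's r of -0.36 and a Spearman's rho of -0.51 across genes. These genes share the same 6 arrays, so the coefficients are a description.

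**Figure D2:**
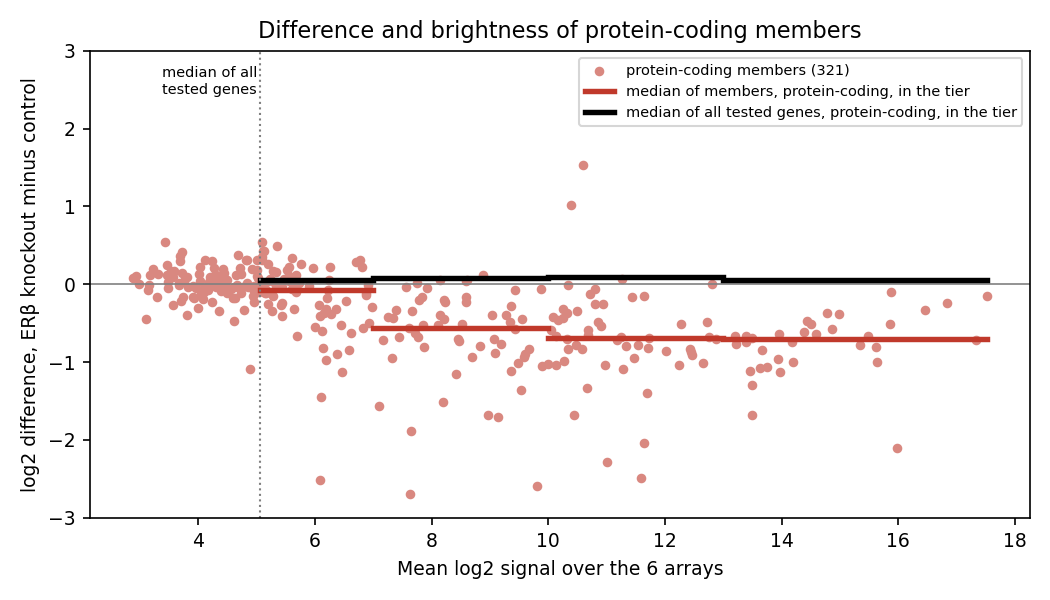
The log2 difference (knockout minus control) of the 321 protein-coding members against their mean log2 signal over the 6 arrays, with the median of members (red bars) and of all tested protein-coding genes (black bars) in each brightness tier, and the median of all tested genes as a dotted line. Member medians go from -0.08 in the dimmest tier to -0.70 in the brightest, and those of all genes stay between 0.06 and 0.09.

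The largest fall was that of ACKR3, an atypical receptor that scavenges the chemokine CXCL12 (probe set TC0200011219.hg.1). Its log2 signals were 6.34, 6.13 and 6.39 in knockout cells, against 9.13, 8.90 and 8.92 in control cells, a 6.47-fold lower signal (log2 difference -2.69, SE 0.13). The groups lay far apart beside their spread. TFPI, the inhibitor of the tissue factor pathway of coagulation, had 8.69, 8.54 and 8.32 in knockout cells, against 10.96, 11.21 and 11.15 in control cells, 6.01-fold lower (SE 0.14). SPAG16, an axonemal protein of motile cilia and sperm tails, had 5.33, 4.68 and 4.49 in knockout cells, against 7.51, 7.26 and 7.26 in control cells. The knockout mean of SPAG16 was dim, so its fall is given as at least 5.69-fold.

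ABCA12, a lipid transporter of the epidermis, had 10.39, 10.30 and 10.34 in knockout cells, against 12.61, 13.06 and 12.82 in control cells, 5.60-fold lower (SE 0.14). DOCK10, an activator of the small GTPases CDC42 and RAC1, had 9.83, 9.68 and 10.06 in knockout cells, against 12.28, 12.13 and 12.02 in control cells, 4.88-fold lower (SE 0.14). CCL20, a chemokine that attracts cells bearing CCR6, was among the brightest transcripts of the interval. It had 14.71, 14.91 and 15.14 in knockout cells, against 17.10, 17.00 and 16.99 in control cells, 4.31-fold lower (SE 0.14). MAP2, a microtubule-associated protein best known from neurons, had 10.68, 10.51 and 10.68 in knockout cells, against 12.63, 12.56 and 12.77 in control cells, 4.10-fold lower (SE 0.13). In each of these genes the 2 groups did not overlap.

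Neighbouring genes for insulin-like growth factor binding proteins were both lower. IGFBP2 had 6.42, 6.93 and 6.77 in knockout cells, against 8.57, 8.54 and 8.68 in control cells, 3.70-fold lower (SE 0.15). IGFBP5 had 8.19, 8.37 and 8.32 in knockout cells, against 9.91, 9.97 and 10.11 in control cells, 3.26-fold lower (SE 0.13). The remaining genes among the 16 largest called falls of bright named genes, small RNA genes and pseudogenes left out, were 2.64-fold to 3.21-fold lower, and their groups did not overlap. They were TTLL4, a tubulin glutamylase, SPATS2L, TUBA4A, an alpha tubulin, ARMC9, a protein of the ciliary base, NAB1, a corepressor of EGR transcription factors, ADAM23, a catalytically inactive member of the ADAM surface proteins, and AP1S3, a clathrin adaptor subunit. Over all 584 members, small RNA genes included, 43 were called lower by at least 2-fold and 2 higher by as much. Of the 43, 35 were bright protein-coding genes. Over all 33578 tested genes the same counts were 276 lower and 379 higher.

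Of the 5 members called higher, SLC40A1, the iron exporter ferroportin, differed most (probe set TC0200015211.hg.1). It had 11.46, 11.32 and 11.30 in knockout cells, against 9.63, 10.03 and 9.81 in control cells, 2.90-fold higher (SE 0.14). RAPH1, or lamellipodin, which recruits Ena/VASP proteins to the leading edge, had 11.03, 10.83 and 10.84 in knockout cells, against 10.03, 9.64 and 9.98 in control cells, 2.03-fold higher (SE 0.14). The calls of the other 3 were less stable. PDE1A, a calcium-dependent phosphodiesterase, was 1.41-fold higher (5.59 ± 0.16 in knockout and 5.09 ± 0.10 in control cells, SD, n = 3 each), and its call was lost without any 1 of the 6 arrays. The pseudogene HNRNPA1P51 was 1.58-fold higher, a call lost without knockout replicate 1 or 2 or control replicate 2 or 3, and as a pseudogene its probes may read its parent gene's RNA. NYAP2 was dim in both groups (3.70 ± 0.08 in knockout and 3.16 ± 0.19 in control cells, SD, n = 3 each), and its call was lost without any 1 array other than control replicate 1. NYAP2 and HNRNPA1P51 were named after their values were seen.

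**Figure D3:**
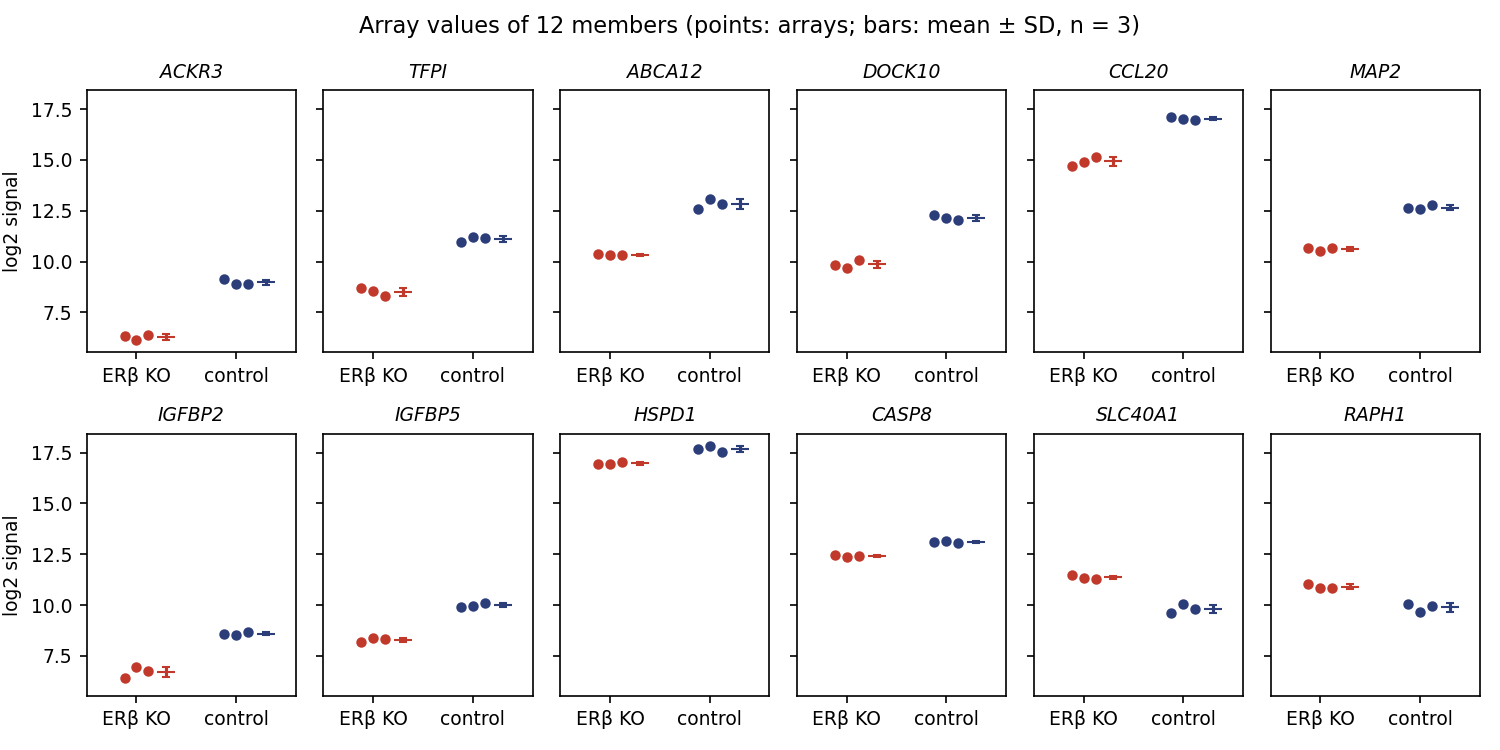
Log2 signal of 12 members on each array, with knockout cells left of control cells in each panel (points are arrays, bars the mean ± SD, n = 3). The 3 knockout arrays lie below the 3 control arrays in every panel except those of SLC40A1 and RAPH1, where they lie above.

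The lists by role hold different shares of bright genes, and among the bright protein-coding members as a whole 45.2% were called lower with a median of -0.49. No difference between lists was tested. Of 20 measured members that act in or reach mitochondria, 10 were called lower and 0 higher, with a median difference of -0.65, and 19 of the 20 were bright. HSPD1 and HSPE1, which code for the mitochondrial chaperonin and its co-chaperone and share a promoter region, were 1.64-fold lower (16.97 ± 0.07 in knockout and 17.68 ± 0.15 in control cells, SD, n = 3 each) and 1.99-fold lower (15.14 ± 0.04 and 16.13 ± 0.25). The read-through gene HSPE1-MOB4 overlaps HSPE1 and MOB4, so their signals are not independent. BCS1L, an assembly factor of respiratory complex III, was 2.06-fold lower and MFF, a receptor for mitochondrial fission, 2.05-fold lower. NDUFA10, a subunit of respiratory complex I, was 1.93-fold lower, a call lost when all probe sets of the gene were averaged.

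Of 17 members listed under ubiquitin, SUMO and the proteasome, 10 were called lower and 0 higher (median -0.65, 14 bright). PSMD1, a scaffold subunit of the proteasome's regulatory particle, was 1.75-fold lower (15.21 ± 0.05 in knockout and 16.02 ± 0.09 in control cells, SD, n = 3 each). COPS8, a signalosome subunit, was 1.94-fold lower, USP40, a ubiquitin protease, 2.02-fold lower and ASB1, a substrate adaptor of ubiquitin ligases, 1.96-fold lower. DNPEP, listed here, is an aspartyl aminopeptidase and was 2.12-fold lower. Of 26 members listed under translation and RNA processing, 15 were called lower and 0 higher (median -0.58, all 26 bright). EIF4E2, a cap-binding repressor of translation, was 2.01-fold lower. RPE (2.18-fold lower), METTL21A (2.17-fold lower) and NAB1 stood in that list but act elsewhere, as a sugar-phosphate epimerase, a chaperone methyltransferase and a transcriptional corepressor.

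Of 17 members listed under DNA repair, replication and chromatin, 9 were called lower and 0 higher (median -0.61, all 17 bright). XRCC5, the larger Ku subunit of end joining, had 15.22, 15.08 and 15.13 in knockout cells, against 15.80, 15.82 and 15.81 in control cells, 1.59-fold lower. ORC2, a subunit of the origin recognition complex, was 1.81-fold lower and SMARCAL1, a fork-remodelling enzyme, 1.93-fold lower. BARD1, the partner of BRCA1, was lower by a log2 difference of -0.58, a call lost without knockout replicate 1 or 2 or control replicate 1 or 3. PARD3B, a polarity protein in that list, was 1.87-fold lower, a call lost without knockout replicate 2 or control replicate 2 or 3. Of 20 transcription and circadian regulators, 6 were called lower and 0 higher (median -0.27, 16 bright). Among those called were the clock gene PER2 (1.77-fold) and ZNF142 (2.03-fold).

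Among 6 death receptor and apoptosis genes, 3 were called lower and 0 higher (median -0.47, 5 bright). CASP8, the initiator caspase of death receptors, had 12.45, 12.35 and 12.43 in knockout cells, against 13.09, 13.15 and 13.04 in control cells, a log2 difference of -0.68. CFLAR, which codes for the caspase-8 regulator FLIP, was 1.80-fold lower, and the pseudokinase STRADB 1.88-fold lower. Of 12 interferon and innate immune genes, 3 were called lower and 0 higher (median -0.14, 10 bright). They were CCL20 (above), SP110, a nuclear body protein (1.63-fold), and SP140L (1.54-fold, a call lost without knockout replicate 1 or 3 or control replicate 1). SP110 and SP140L belong to a tandem family of similar sequence, so probe sets may not separate its members. Of 4 T cell costimulation genes 0 were called, and the largest difference was that of CD28, dim in both groups (2.88 in knockout and 3.32 in control cells). By limma adjusted p, the tandem families as a whole had 3 of 17 members called lower and 0 higher, with a median of -0.04, and most were dim.

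The lists of the cell surface and the matrix held more dim genes, and 19.2% of all members were called lower. Of 18 secreted ligands and binding proteins, 5 were called lower and 0 higher (median 0.00), and 11 of the 18 were dim. TFPI, CCL20, IGFBP2 and IGFBP5 are given above, and SERPINE2, a protease inhibitor of the serpin family, differed by -0.68. Of 24 surface receptors, 5 were called lower and 0 higher (median -0.10, 13 bright), among them ACKR3, ADAM23 and FZD7, a WNT receptor (2.22-fold). Of 14 matrix and adhesion genes, 3 were called lower and 0 higher (median -0.20, 9 bright). ITGAV, the alpha-v integrin chain, had 13.06, 13.08 and 13.13 in knockout cells, against 14.17, 14.07 and 14.25 in control cells, a log2 difference of -1.07. FN1, fibronectin, a ligand of that integrin, had 13.43, 13.17 and 13.09 in knockout cells, against 14.40, 14.23 and 14.23 in control cells, 2.08-fold lower. In both genes every knockout array lay below every control array.

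Of 33 members listed under cytoskeleton, vesicles and autophagy, 12 were called lower and RAPH1 was called higher (median -0.38, 26 bright). Among all members 19.2% were called lower, and among the bright protein-coding members 45.2%. GULP1, an adaptor for the engulfment of dying cells, was 2.46-fold lower, and its values were 12.84 ± 0.02 in knockout and 14.14 ± 0.05 in control cells (SD, n = 3 each). Of 24 members listed under insulin, kinase and GTPase signalling, 7 were called lower and 2, RAPH1 and PDE1A, higher (median -0.23, 20 bright). AGAP1, an ARF GTPase-activating protein, was 1.85-fold lower, a call lost when all probe sets of the gene were averaged. Of 19 transporters and channels, 3 were called lower and 1, SLC40A1, higher (median -0.04, 8 bright). ABCB6, a porphyrin transporter, differed by -0.67, and TMEM237, a protein of the ciliary transition zone placed in that list, was 2.52-fold lower. Of 23 lipid and small-molecule enzymes, 5 were called lower and 0 higher (median -0.12, 16 bright). Among those called were AOX1, aldehyde oxidase (2.18-fold), HIBCH, an enzyme of valine breakdown (1.98-fold), and DGKD, a diacylglycerol kinase (1.75-fold).

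Small RNA genes in introns of the interval were lower by more than their host genes. NOP58, a core protein of box C/D snoRNA particles, had 15.81, 15.74 and 15.93 in knockout cells, against 15.87, 16.01 and 15.92 in control cells. Its groups overlapped (difference -0.10). SNORD70, in a NOP58 intron, had 6.58, 6.47 and 6.60 in knockout cells, against 8.56, 8.19 and 8.43 in control cells, a log2 difference of -1.85. SNORD11 in the same host differed by -1.08 and was called, and SNORD11B by -0.56 and was not.

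NCL, or nucleolin, a major nucleolar protein, differed by -0.25 and was not called, with 16.76, 16.76 and 16.62 in knockout cells, against 16.90, 16.84 and 17.14 in control cells. Its groups did not overlap. Its intronic SNORD82 had 12.37, 12.15 and 12.36 in knockout cells, against 13.84, 14.23 and 13.73 in control cells, a difference of -1.64. SNORD20 differed by -1.24 and SNORA75 by -1.77, and both were called. SNORA75 has copies elsewhere, and 8 probe sets on the array carry its name. ATG16L1, an autophagy protein, differed by -0.20, and SCARNA5 and SCARNA6 in its introns by -1.20 and -1.04, both called. Of the 9 snoRNA and Cajal body RNA genes measured in the interval, 7 were called lower, and the 8 bright ones had a median of -1.22. The 113 bright genes of this kind outside the interval had a median of -0.30, with 29 called lower and 2 higher. The difference between a small RNA and its host was not tested, because the same contrast chose the interval.

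**Figure D4:**
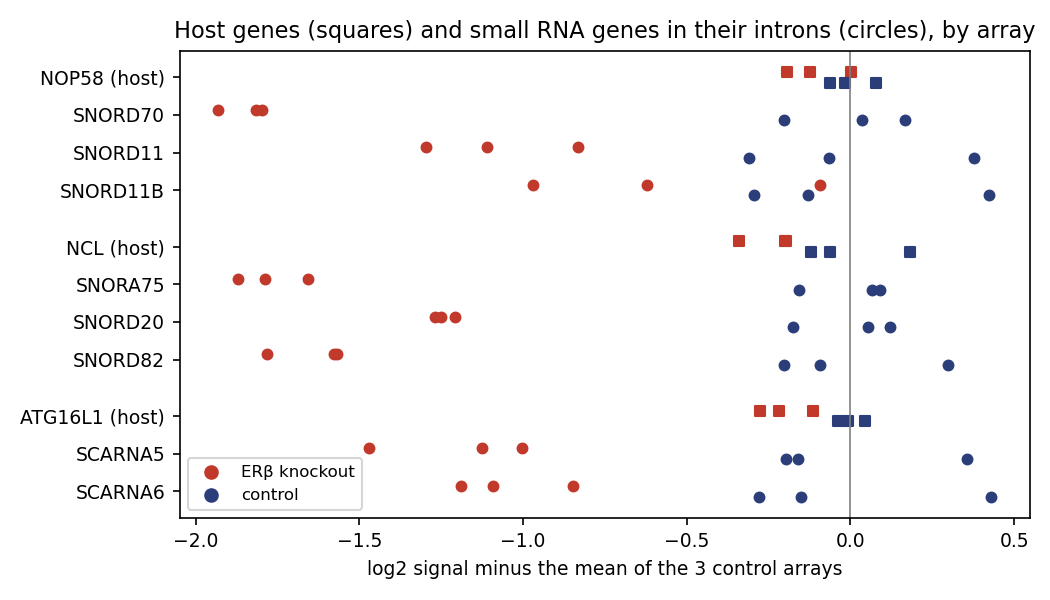
Log2 signal on each array, minus the mean of the 3 control arrays, for 3 host genes of the interval (squares) and the 8 small RNA genes in their introns (circles), with knockout arrays in red above control arrays in blue. Knockout arrays of the small RNA genes other than SNORD11B lie 0.8 or more below the control mean, whereas those of the hosts lie within 0.4 of it.

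Other non-coding members showed little difference. Of 173 pseudogenes, 57 of them bright, 3 were called lower and 1 higher (median -0.01). Of 40 long non-coding RNA genes, 5 of them bright, 1 was called lower and 0 higher (median 0.01). Over all tested genes 3.21% were called lower and 4.81% higher. The 75 bright members that are not protein-coding, small RNA genes included, had a median of -0.02, with 11 called lower. The 100 dim protein-coding members had a median of 0.01, and the part of brightness was not tested. None of the 35 microRNA hairpin genes was called, 5 of them were bright, and their median was -0.08. Among the 30 brightest members, those with the smallest differences were RN7SL670P (-0.01), RN7SL32P (0.07) and NOP58 (-0.10). The RN7SL genes are pseudogenes of the abundant signal recognition particle RNA, and probe sets for such copies may read the parent RNA.

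Products of the interval often work with proteins whose genes lie outside it. The partners ITGB6, ORC4 and CENPA also lie on chromosome 2 and were bright. Their differences may thus have entered the running medians by which the interval was chosen. Of 48 measured partner genes, 8 rose and 1 fell (limma over all genes), which is 16.7% and 2.08% of them. Of the partners 45 were bright, and among all bright protein-coding genes 11.0% were called higher and 6.79% lower (4.81% and 3.21% of all tested genes). The difference between these shares was not tested. The median of the partners was 0.04, against -0.61 for the 30 members they work with. Of those members 19 were called lower (63.3%) and 0 higher, where 45.2% of all bright protein-coding members were called lower. The members lie in an interval chosen for low differences, so this contrast with their partners is a description and tests nothing. ITGB5, a beta chain that pairs with ITGAV, rose to 10.93 ± 0.13 in knockout cells, against 9.70 ± 0.06 in control cells (SD, n = 3 each, 2.34-fold, limma adjusted p = 0.00014). ITGB6, another such chain, rose 1.77-fold (limma adjusted p = 0.0495), a call lost without knockout replicate 1 or 3 or control replicate 1 or 2. ITGB1 differed by -0.0021 (limma adjusted p = 0.997). INSR, the insulin receptor, which signals through IRS1, rose 3.41-fold (limma adjusted p = 1.0e-05), whereas IGF1R, which uses the same substrate, fell 1.69-fold (limma adjusted p = 0.0068). IRS1 itself differed by -0.17 and was not called.

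ATG12, which works with ATG16L1, rose 2.11-fold (limma adjusted p = 0.00032) and COL6A1, which assembles with COL6A3, 2.23-fold (limma adjusted p = 0.00092). ATG16L1 itself differed by -0.20 and COL6A3 by 0.17, and neither was called. PSMD2, the partner scaffold of PSMD1, rose 1.70-fold (limma adjusted p = 0.0048), ARPC3, a partner of ARPC2 in actin nucleation, 1.77-fold (limma adjusted p = 0.0051), and ORC3, a partner of ORC2, 1.56-fold (limma adjusted p = 0.025). The ORC3 call was lost without control replicate 1 or any 1 of the knockout replicates. Partners not called included XRCC6, the other Ku subunit (0.10, limma adjusted p = 0.73), BRCA1 (-0.11, limma adjusted p = 0.71), FADD, the adaptor of caspase-8 (0.19, limma adjusted p = 0.47), and HSPA9, a mitochondrial chaperone (-0.12, limma adjusted p = 0.68).

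**Figure D5:**
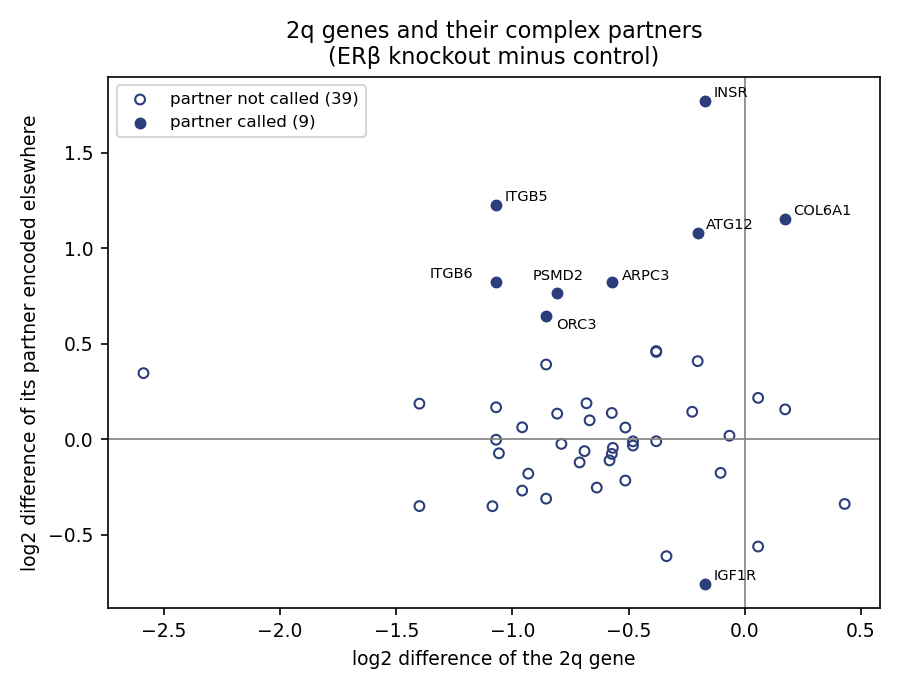
The log2 difference (knockout minus control) of 48 partner genes encoded elsewhere against that of the gene of the interval they work with, with partners called by limma filled and named. Most of the genes of the interval lie left of 0, and 8 of the 9 called partners lie above 0, with IGF1R below it.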

How the data were processed

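RNA extracted from the cells was measured on Affymetrix arrays. The deposited table gives log2 signal values. RMA and Transcriptome Analysis Console are named in the submitters' processing notes, with no version, setting or build given in the sources used here. That the scale is log2 was judged from the range of values. RMA corrects background and normalizes between arrays, which takes out a shift common to a whole array. Precision is limited by having 3 arrays in each group.

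Probe sets with exactly 1 platform symbol (35528 of 134748) were named through Entrez ID or symbol in RefSeq (GRCh38.p14), and 608 of them belong to the 584 members. Knockout was set against control in limma 3.58.1 (lmFit and eBayes, two-sided; R 4.3.3), Benjamini-Hochberg adjusted over all 33578 genes at 0.05 (4 residual and 6.84 prior degrees of freedom). The steps were tested on simulated data. Members and lists (16 of them, 238 members measured) were chosen with earlier results of these data known. The lists name members by known role. Of 62 partners listed, 48 were measured outside the interval for a measured member. Named genes were the 16 largest called falls and up to 10 called rises of bright named genes (small RNA genes, antisense genes, pseudogenes and unnamed loci left out, groups not overlapping), the 5 genes at each side of each end, up to 3 called genes per list and direction (or the largest difference), called partners, the 3 smallest differences of the 30 brightest members, and ESR2. Others, chosen after their values were seen, were NYAP2, HNRNPA1P51, NRP2, HSPD1, NDUFA10, PSMD1, COPS8, EIF4E2, XRCC5, BARD1, SERPINE2, GULP1, IRS1, NCL and ATG16L1. Also chosen in this way were MTX2, NFE2L2, AGPS, COL6A3, the small RNA genes and the partners not called. MTX2, NFE2L2, AGPS, COL6A3, ORC4 and CENPA were not among the named genes followed through the alternatives. Alternatives are listed in the closing section.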

Additional observations from a re-analysis of the deposited data

How the results depend on the processing

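Of 14 alternatives, those not named here left each count within 1.5 times. The members called lower numbered 95 to 113 without any 1 array and 60 with an unmoderated linear model, against 112. The members called higher numbered 2 without knockout replicate 1 or 2 or control replicate 3, 3 without knockout replicate 3 or control replicate 2, 4 without control replicate 1, 3 with a replicate block, 8 among genes above the median brightness and 2 in the unmoderated fit, against 5. The median difference of members was -0.11 to -0.08 without 1 array, -0.34 among genes above the median brightness and -0.22 among protein-coding genes, which are smaller sets of members. Members whose groups did not overlap numbered 183 to 199 (lower) and 44 to 54 (higher) without 1 array, where fewer arrays make separation easier, and the higher ones 16 among bright and 16 among protein-coding genes. Called partners numbered 7 to 9 without 1 array and 3 in the unmoderated fit, against 9. With the replicate number as a block, 110 members were called lower, 3 higher and 9 partners in all. Same-numbered arrays had correlations of their deviations of -0.019, -0.01 and -0.03, and differently numbered arrays of -0.034 to 0.046. Whether same-numbered samples were handled together is not stated, so the block is only a check. The block ended the calls of PDE1A and NYAP2 and added that of SNORD11B.

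Named genes with small differences changed sign. Leaving out 1 array at a time gave -0.12 to 0.22 for KIF1A, -0.078 to 0.24 for SNED1, -0.064 to 0.22 for PASK, -0.17 to 0.083 for CERKL, -0.075 to 0.16 for ESR2, -0.055 to 0.13 for RN7SL32P, -0.054 to 0.068 for ITGB1 and -0.031 to 0.0015 for RN7SL670P. KIF1A also went to -0.026 after repeated quantile normalization and RN7SL670P to 0.0045 and ITGB1 to 0.013 with array medians set equal. With the mean of all probe sets, SNED1 went to -0.24 and PLEKHA3 to 0.086. The cause of these changes was not tested. The unmoderated fit has only the arrays' own spread to judge by and lost 34 of the 80 calls among named genes. The values carry no detection limit, so dim genes could not be told from background.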
